A study of Mus musculus with 4 samples.

Results

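Layer 2/3 intratelencephalic (L2/3 IT) neurons of the mouse cortex were examined in single-nucleus RNA of 4 mice. Their nuclei were picked by a rule on single genes, without clustering. A nucleus was taken if it held at least 2 unique molecular identifiers (UMIs, counted molecules) of *Slc17a7*, the vesicular glutamate transporter of cortical excitatory neurons, and at most 1 of *Gad1* and *Gad2*, the enzymes of GABA synthesis. It also had to show at least 3 of the 7 genes *Otof*, *Stard8*, *Igfn1*, *Kcnh4*, *Cux2*, *Nectin3* and *Gm12371*, fewer than 3 of the 7 layer 4/5 genes *Rspo1*, *Adam33*, *Gm29674*, *BC006965*, *1700047F07Rik*, *Scn7a* and *Whrn*, and no UMI of *Prox1*, a gene of hippocampal granule cells. Of 36619 deposited nuclei, 36094 were kept, with over 600 genes and under 5% mitochondrial UMIs, and 2809 of these met the rule.

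L2/3 IT neurons are glutamatergic pyramidal cells of the upper cortex whose axons stay within the telencephalon and link cortical areas of both hemispheres. SEL1L is the adaptor of the HRD1 ubiquitin ligase in the membrane of the endoplasmic reticulum (ER), and the complex sends misfolded ER proteins to the proteasome, a route called ER-associated degradation (ERAD). When misfolded proteins build up, the unfolded protein response (UPR) raises genes of ER chaperones, and the transcription factor ATF4 raises genes of amino acid supply and of translation control.

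The mice were 5 weeks old. Their cortex and hippocampus were dissected together, the nuclei were sorted by flow cytometry, and each mouse gave 1 library made with the 10x Genomics 3′ v3 chemistry. The labels assign 2 libraries to Sel1L flox/flox mice, written Sel1L fl/fl below, and 2 to Sel1L Syn-Cre mice, written Sel1L SynCre, in which the floxed alleles are combined with Cre recombinase under the Synapsin I promoter. That promoter drives Cre in neurons, and by the study's account deletion reached a subset of them. Deposited totals were 122870443 and 76617523 UMIs in the libraries labelled Sel1L fl/fl (replicates 1 and 2), against 75227337 and 74082610 in those labelled Sel1L SynCre.

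L2/3 IT nuclei numbered 927 and 665 under the Sel1L fl/fl label and 564 and 653 under the Sel1L SynCre label. They held 15332556, 10136547, 8938411 and 10356351 UMIs in that order, with medians per nucleus of 14970, 13676, 14350.5 and 14255 UMIs. Depth per nucleus was therefore much alike in the 4 libraries. Between any pair of libraries, 10 to 34 cell barcodes were shared, and 1 L2/3 IT barcode was among those.

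The RNA of *Cre* went against a label. L2/3 IT nuclei held 26 and 0 UMIs of *Cre* under the Sel1L fl/fl label, against 9 and 14 under the Sel1L SynCre label. In plain CPM, the share of a gene's UMIs among all UMIs of its class times a constant, the levels were 1.70 and 0 against 1.01 and 1.35, so that replicate 1 labelled Sel1L fl/fl lay above both libraries labelled Sel1L SynCre. The same library carried 16.0 plain CPM of *Cre* in interneuron nuclei, beside 0 in replicate 2 of that label and 14.4 and 14.8 under the Sel1L SynCre label. Groups are named by their labels throughout, and the main results are given with and without that library.

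Sex and the target gene were checked next. Replicate 1 of each label carried RNA of the Y-linked gene *Ddx3y* in L2/3 IT nuclei (595 and 397 UMIs) and replicate 2 of each had none, so replicate number and sex cannot be told apart. RNA of *Sel1l* in L2/3 IT nuclei was 97.0 and 82.1 CPM (here and wherever not called plain, on library sizes adjusted by edgeR's TMM factors) under the Sel1L fl/fl label and 101 and 95.6 under the Sel1L SynCre label. The ranges overlapped, with a log2 fold change of 0.13 ± 0.117 (SE, adjusted p = 0.709, edgeR). Reads at the 3′ end need not report a deletion elsewhere in the gene, so this value does not check it.

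Markers that the rule did not use were mostly those of upper-layer neurons. *Rasgrf2*, an exchange factor for Ras, had a UMI in a mean of 89.4% of L2/3 IT nuclei over the 4 libraries, in 65.9% of L4/5 IT nuclei, in 74.8% of dentate gyrus (DG) granule nuclei and in 38.3% of other excitatory nuclei. *Enpp2*, which makes lysophosphatidic acid, had 82.1%, 45.1%, 12.5% and 34.7% in the same order, and 92.5% in oligodendrocyte nuclei, which also use it. The transcription factor gene *Cux1* had 89.8%, 67.1%, 41.5% and 47.7%. Not every marker followed. *Plcxd2* had a UMI in 11.5% of L2/3 IT and 45.1% of L4/5 IT nuclei, and *Calb1*, at 59.1% of L2/3 IT nuclei, was seen in 68.9% of DG nuclei too. These values describe the chosen nuclei and are not a test, since all genes of a nucleus were read together.

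**Figure D1:**
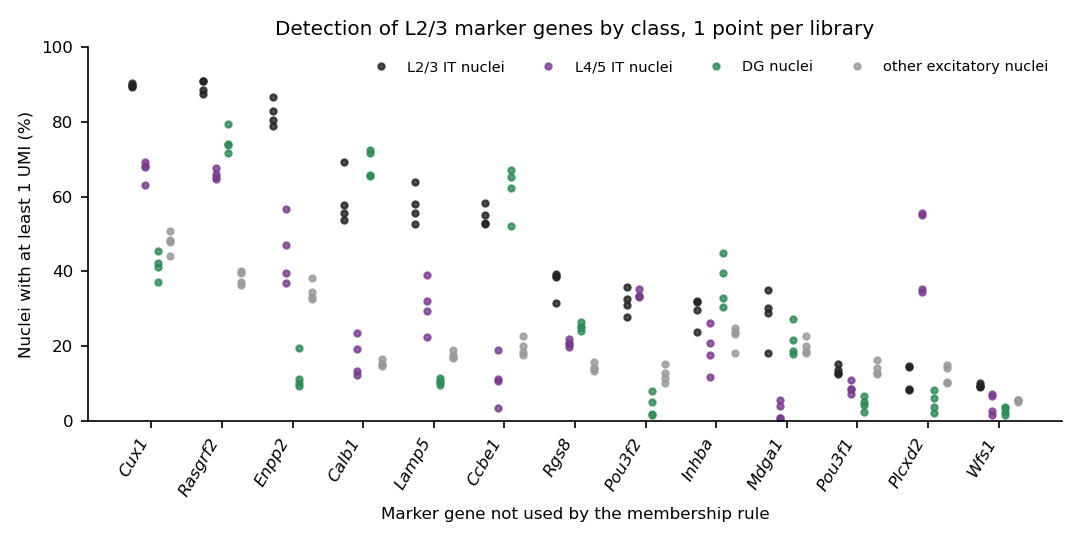
Share of nuclei with at least 1 UMI (vertical axis, %) for 13 of 14 L2/3 marker genes that the rule did not use (horizontal axis), in L2/3 IT, L4/5 IT, DG and other excitatory nuclei, with 1 point per library. *Rasgrf2*, *Enpp2* and *Cux1* were highest in L2/3 IT nuclei, and *Plcxd2* was higher in L4/5 IT nuclei.

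The edge of the rule was gradual. Nuclei just inside it, with 3 of the 7 L2/3 genes, had *Rasgrf2* at 202, 239, 226 and 238 plain CPM (libraries in the order above), and nuclei just outside, with 2, had 109, 109, 128 and 145. *Enpp2* was 160, 172, 201 and 258 inside and 94.5, 86.7, 106 and 155 outside. Of the L2/3 IT nuclei, 386, 259, 251 and 272 sat at the edge with 3 genes. A single L4/5 gene was seen in 225, 208, 106 and 174 of them and 2 L4/5 genes in 134, 96, 63 and 64, while 155, 106, 46 and 71 nuclei with 3 or more genes of both lists were left out.

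L2/3 IT nuclei made up 7.50% and 7.88% of kept nuclei under the Sel1L fl/fl label and 6.99% and 9.03% under the Sel1L SynCre label. Their 95% Wilson intervals, which cover counting error only, were 7.05 to 7.98, 7.33 to 8.48, 6.46 to 7.57 and 8.39 to 9.71. The means, 7.69% ± 0.272 and 8.01% ± 1.44 (SD, n = 2 libraries each), lay 0.321 percentage points apart, within the spread of the Sel1L SynCre pair (two-sided exact permutation p = 1, where 2 libraries against 2 cannot go below 0.33). Without replicate 2 labelled Sel1L SynCre the difference was -0.698 points, and without replicate 1 of that label it was 1.34. The direction also turned with the way the share was taken. It was -0.555 points as a percent of excitatory nuclei and -0.0195 with at least 4 rule genes. Kept nuclei with at least 4000 UMIs (9006, 6085, 5926 and 5812) were also thinned to 4000 UMIs, and the rule was applied again. The shares of this deeper set were 1.68% and 1.94% against 1.05% and 1.45%. The labels did not overlap, and the difference was -0.562 points (two-sided exact permutation p = 0.33, the smallest that 4 libraries allow). The share rests on the L2/3 genes of the rule, none of which passed the edgeR test described below. Levels of 2 of them are given as they stand. *Otof* was 46.7 and 50.7 CPM against 30.2 and 32.4, and *Stard8* 53.6 and 41.4 CPM against 68.6 and 64.3. Of the 7 rule genes, 5 had a lower and 2 a higher fitted level under the Sel1L SynCre label, with a median log2 fold change of -0.43, given as a description since the rule used them.

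To see which RNAs of L2/3 IT nuclei differed with the label, their UMIs were summed per library and compared with edgeR's quasi-likelihood test, 2 mice against 2. Of 15626 genes tested, 8 passed an adjusted p of 0.05, which is 0.0512% of them. RNA of 5 genes (0.032%) rose under the Sel1L SynCre label, namely *Pcsk1*, *1700016P03Rik*, *Gm47423*, *9630002D21Rik* and *Cenpn*, and that of 3 genes (0.0192%) fell, namely *Il1rapl2*, *Gm20752* and *Phldb2*. At an unadjusted p under 0.05, 968 genes (6.19%) were higher and 889 (5.69%) lower. The count moved with the model, to 326 with the replicate number as a block and 152 with DESeq2. It also moved with the mice included. It was 232 without replicate 1 labelled Sel1L fl/fl, the library with *Cre* RNA, 15 without replicate 2 of that label, 24 without replicate 1 labelled Sel1L SynCre and 18 without replicate 2 of it. Without the library with *Cre* RNA, all 8 genes passed again in the same direction.

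Among the 5 genes that passed and rose, the largest rise was in *1700016P03Rik*, the transcript from which 2 microRNAs, miR-212 and miR-132, are cut. Both are known as microRNAs whose gene is switched on by neuronal activity through the factor CREB. The transcript lies at chr11:75172560-75177633 on the plus strand of GRCm38 and is annotated as a processed transcript. Its microRNAs are shown since they are the products it is known for. Bases 2 to 8, the seed that pairs with target RNAs, are in capitals, and the sequences are RefSeq's for GRCm38.p6, with both 3p arms and then both 5p arms:
miR-212-3p: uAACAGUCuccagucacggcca
miR-132-3p: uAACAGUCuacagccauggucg
miR-212-5p: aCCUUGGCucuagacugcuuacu
miR-132-5p: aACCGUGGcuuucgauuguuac

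The 3p arms, at chr11:75173443-75173464 and chr11:75173723-75173744, share the seed AACAGUC, and the 5p arms do not share one. *1700016P03Rik* had 810 and 316 UMIs in L2/3 IT nuclei under the Sel1L fl/fl label and 1399 and 2164 under the Sel1L SynCre label, or 54.1 and 30.8 against 160 and 204 CPM. Both libraries labelled Sel1L SynCre lay above both others, and the log2 fold change was 2.09 ± 0.242 (SE, adjusted p = 0.0443, edgeR). Without the library with *Cre* RNA it was 2.57 (adjusted p = 0.00364). The counts are of the longer host transcript in the nucleus, so neither mature microRNA was measured. *Ovca2*, which overlaps it on the opposite strand, had 27, 22, 10 and 56 UMIs, far fewer.

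The rise was spread over many nuclei. After each nucleus was thinned to 4000 UMIs, 18.5% and 11.0% of L2/3 IT nuclei had a UMI of *1700016P03Rik* under the Sel1L fl/fl label, against 39.4% and 45.4% under the Sel1L SynCre label. Nuclei with the RNA also held more of it, with means of 1.36 and 1.23 UMIs against 1.80 and 2.07. In oligodendrocyte nuclei, given as the level that free RNA can reach in another class, the shares were 3.26% and 1.52% against 14.8% and 9.52% at the same depth (767, 264, 108 and 63 nuclei deep enough), each below that of L2/3 IT nuclei of the same library. *1700016P03Rik* was also higher in the other neurons, with a log2 fold change of 2.02 in L4/5 IT and 2.01 in DG nuclei (adjusted p = 0.00168 and 0.0175). Its label means were 7.62 against 35.4 plain CPM in oligodendrocyte nuclei, a ratio of 4.64, beside 4.35 in L2/3 IT nuclei. The relative rise was thus not particular to neurons.

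*Pcsk1* encodes prohormone convertase 1/3, which cleaves precursors of neuropeptides and hormones in secretory granules (chr13:75089826-75134861, plus strand). It had 406 and 251 UMIs under the Sel1L fl/fl label and 593 and 795 under the Sel1L SynCre label, or 27.1 and 24.4 against 67.9 and 74.8 CPM. The groups were far apart and each pair was close together. The log2 fold change was 1.47 ± 0.120 (SE, adjusted p = 0.0108, edgeR) and kept to between 1.40 and 1.64 in the main test and every alternative. Of thinned L2/3 IT nuclei, 7.80% and 7.97% against 18.3% and 16.9% had a UMI of *Pcsk1*, beside 1.83%, 1.52%, 4.63% and 9.52% of oligodendrocyte nuclei in the same order. *Pcsk1* rose in L4/5 IT nuclei too (log2 fold change 0.84, adjusted p = 0.0438, edgeR). Its label means in DG nuclei were 7.59 against 19.5 plain CPM. Higher values under the Sel1L SynCre label were thus not particular to L2/3 IT nuclei.

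*Gm47423* is an RNA annotated antisense within *Ntrk2*, the gene of the BDNF receptor TrkB (chr13:58824218-58826994, minus strand). It had 24.2 and 24.4 CPM under the Sel1L fl/fl label and 74.0 and 113 under the Sel1L SynCre label, a log2 fold change of 1.94 ± 0.189 (SE, adjusted p = 0.0169, edgeR). *Gm47423* rose in L4/5 IT nuclei as well (1.97, adjusted p = 0.00168, edgeR). *Ntrk2* itself had 764 and 391 against 785 and 764 CPM, so that 1 library stood low and the change of 0.42 did not pass (adjusted p = 0.571). Whether counting used the strand is not given in the sources used here, and RNA of the overlapping pair may not be fully told apart. The intergenic RNA *9630002D21Rik* (chr12:71577748-71718696, plus strand) had 14.0 and 12.6 against 36.0 and 43.7 CPM, a log2 fold change of 1.59 ± 0.150 (SE, adjusted p = 0.0163). *Cenpn*, a centromere protein gene (chr8:116921730-116941507, plus strand), had only 34 and 32 against 93 and 115 UMIs, or 2.02 ± 0.240 on the log2 scale (SE, adjusted p = 0.0474). Label means of *Cenpn* were 1.63 against 5.81 plain CPM in L4/5 IT and 2.33 against 2.57 in interneuron nuclei. Those of *9630002D21Rik* were 4.33 against 8.75 in other excitatory and 42.9 against 45.1 in interneuron nuclei. For each of these rises in L2/3 IT nuclei, no library of one label reached the range of the other. *Cenpn* is the weakest of them: its adjusted p was 0.0941 without replicate 1 and 0.0635 without replicate 2 labelled Sel1L SynCre, 0.0537 with edgeR's legacy quasi-likelihood and 0.0565 in nuclei with no L4/5 gene.

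**Figure D2:**
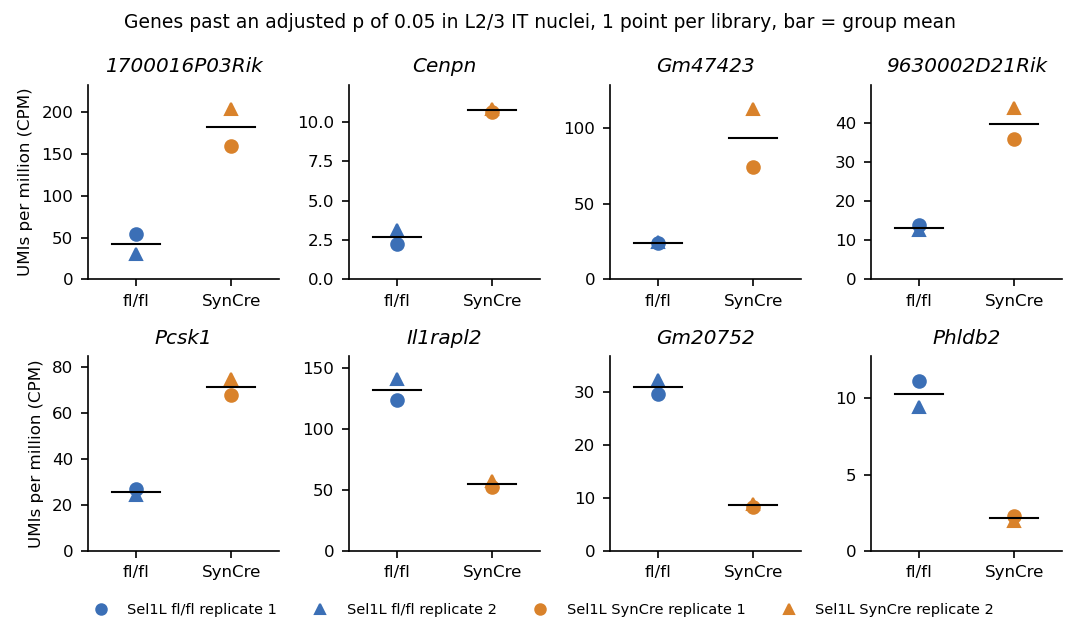
RNA level in L2/3 IT nuclei (vertical axis, TMM-scaled CPM, from 0) of the 8 genes past an adjusted p of 0.05, with 1 point per library by label and a bar at the mean of the 2 libraries. *Pcsk1*, *1700016P03Rik*, *Gm47423*, *9630002D21Rik* and *Cenpn* are higher under the Sel1L SynCre label, *Il1rapl2*, *Gm20752* and *Phldb2* are lower, and the labels overlap in none of the 8.

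RNA that fell came from 3 genes. *Il1rapl2*, a neuronal receptor of the interleukin-1 receptor family (chrX:137570608-138846946, plus strand), had 1853 and 1447 against 461 and 607 UMIs, or 124 and 141 against 52.8 and 57.1 CPM. Its log2 fold change was -1.27 ± 0.115 (SE, adjusted p = 0.0157, edgeR). *Gm20752*, an intergenic RNA (chr3:159076364-159308081, plus strand), had 29.7 and 32.3 against 8.36 and 8.84 CPM, which is -1.85 ± 0.146 (SE, adjusted p = 0.0108). It fell in L4/5 IT nuclei too (-2.03, adjusted p = 0.00168, edgeR). *Phldb2*, whose protein anchors microtubules at the cell edge (chr16:45746243-45953598, minus strand), had 11.2 and 9.45 against 2.29 and 1.98 CPM, which is -2.28 ± 0.247 (SE, adjusted p = 0.0316). For each of the 3, both libraries labelled Sel1L SynCre lay below both others. *Phldb2* is overlapped on the opposite strand by *Gm15638*, with 8, 2, 14 and 11 UMIs, and *Il1rapl2* by *Tex13a*. The adjusted p of *Phldb2* was 0.0681 without replicate 1 and 0.0624 without replicate 2 labelled Sel1L SynCre, and that of *Il1rapl2* was 0.0527 without replicate 1 of that label, 0.112 in nuclei with at least 4 rule genes and 0.0589 in nuclei with no L4/5 gene.

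*Il1rapl2* is also a marker of deeper layers, so its level was set against how many L4/5 genes a nucleus held. In L2/3 IT nuclei with no L4/5 gene it was 64.0 and 49.1 plain CPM under the Sel1L fl/fl label and 30.0 and 27.7 under the Sel1L SynCre label. In nuclei with 2 L4/5 genes it was 207 and 328 against 51.5 and 115. *Gm20752* went from 15.4 and 17.8 against 2.48 and 4.70 with none to 71.4 and 79.7 against 33.4 and 34.7 with 2. Both RNAs were thus more abundant in nuclei with 2 L4/5 genes than in nuclei with none, in each library, and lower under the Sel1L SynCre label among nuclei of each kind. Of the 7 L4/5 genes, which the rule used, 6 had a lower and 1 a higher fitted level under that label. Their median log2 fold change in L2/3 IT nuclei was -0.33, given as a description. The same number of L4/5 genes may thus not mark like nuclei under both labels, and the split is no control for layer. Among nuclei with no L4/5 gene alone, *Il1rapl2* had a log2 fold change of -0.99 (adjusted p = 0.0589), *Gm20752* -2.21 (0.0243) and *Phldb2* -2.70 (0.0157). *Phldb2* did not depend on that number in the same way, with 11.6 and 9.45 plain CPM with none and 8.03 and 9.20 with 2 under the Sel1L fl/fl label. Nuclei with no L4/5 gene were 568 of 927, 361 of 665, 395 of 564 and 415 of 653, so the mix itself differed between libraries. Its part in the fold changes over all L2/3 IT nuclei was not tested beyond these values.

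**Figure D3:**
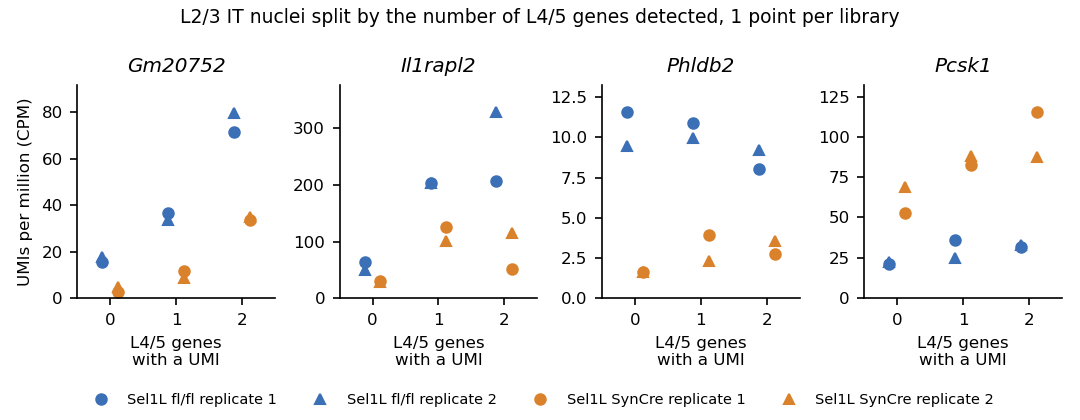
RNA level (vertical axis, plain CPM, from 0) of 4 genes in L2/3 IT nuclei split by the number of L4/5 genes with a UMI (horizontal axis, 0 to 2), with 1 point per library. *Gm20752* and *Il1rapl2* are higher with 2 such genes than with none in every library and lower under the Sel1L SynCre label at each number, and *Pcsk1* is higher under that label at each number.

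*Pcsk1* belongs to a list of 12 late activity genes, RNAs that follow neuronal firing by hours. All 12 were tested, 1 rose (*Pcsk1*) and none fell. At an unadjusted p under 0.05, 8 were higher and none lower, against 6.19% and 5.69% of all genes, and the median log2 fold change of the list was 1.00 against -0.00122 for all genes. *Bdnf*, the neurotrophin that binds TrkB, had 29.2 and 19.8 against 51.3 and 67.7 CPM (1.28 ± 0.202, adjusted p = 0.0653). *Homer1*, a scaffold of the postsynaptic density, had 342 and 234 against 564 and 616 CPM (1.03 ± 0.175, adjusted p = 0.0762). *Vgf* and *Scg2*, 2 secretory granule proteins, had log2 fold changes of 1.17 and 1.21 (adjusted p = 0.0580 and 0.0935). None of these 4 passed. *Rgs2* (-0.25), *Inhba* (0.14) and *Dusp6* (0.28) were near 0.

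Of 16 immediate early genes, the transcription factors and signalling genes made within minutes of firing, all were tested and none passed. At an unadjusted p, 8 were higher and 1 lower, against 6.19% and 5.69% of all genes, with a median of 0.75. The higher ones were the receptors *Nr4a1*, *Nr4a2* and *Nr4a3* (0.83, 1.85 and 2.35), *Egr2* and *Egr3* (1.70 and 1.56), *Fosb* and *Fosl2* (1.24 and 1.69) and the phosphatase gene *Dusp1* (1.08). Other members of the same families had values nearer to 0 or below it. *Fos* was 18.3 and 15.5 against 11.7 and 23.0 CPM (0.05), *Egr1* 46.7 and 55.4 against 32.6 and 48.9 CPM (-0.32), *Npas4* was at -0.28 and *Junb* at -0.45. Much of the spread lay between the 2 libraries labelled Sel1L SynCre. *Nr4a3* had 9.28 and 4.38 CPM under the Sel1L fl/fl label but 17.8 in replicate 1 and 53.3 in replicate 2 labelled Sel1L SynCre.

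The cAMP response element TGACGTCA, the site that CREB binds, was looked for on both strands in the 250 bases before the start site, in RefSeq promoter windows of GRCm38.p6. It was in 508 of 32851 windows (1.55%), and in 2 of the 9 late activity genes that had a window, *Pcsk1* and *Scg2*. Of 12 immediate early genes with a window it was in *Dusp1* alone. Both stretches are shown, with the element in capitals, at chr13:75089739-75089826 (plus strand) and chr1:79440047-79440134 (minus strand), where it begins 78 and 68 bases before the start:
Pcsk1: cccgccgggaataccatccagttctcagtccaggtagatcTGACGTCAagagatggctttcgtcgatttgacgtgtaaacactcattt
Scg2: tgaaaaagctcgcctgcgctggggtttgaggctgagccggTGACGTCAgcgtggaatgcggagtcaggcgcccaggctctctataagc

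A match of these letters is a description of the window and says nothing of binding in these nuclei. Of the 8 genes that passed, 6 had a window, and only that of *Pcsk1* held the element.

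Among 10 genes known to respond to glucocorticoids, none passed, and 4 were higher and none lower at an unadjusted p, against 6.19% and 5.69% of all genes. *Fkbp5*, a co-chaperone of the glucocorticoid receptor that the receptor itself raises, had 26.7 and 27.0 against 58.2 and 90.1 CPM, a log2 fold change of 1.47 ± 0.192 (SE, adjusted p = 0.0529, edgeR). *Sgk1* and *Tsc22d3*, 2 other targets of that receptor, were at -0.05 and 0.00. The 4 were *Fkbp5*, *Per1*, *Zbtb16* and *Sult1a1*, and the median of the list was 0.21.

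With all 4 libraries in edgeR's test, none of the ERAD, chaperone and UPR genes below passed in L2/3 IT nuclei. Of those followed through the alternatives, *Ddit3* passed in 4 of 15 (lowest adjusted p = 0.00158, DESeq2), and *Hspa5* and *Derl3* in 1 each, with the replicate number added as a block (adjusted p = 0.0144 and 0.0190, edgeR). Of 20 ERAD genes tested, 4 were higher and none lower at an unadjusted p, against 6.19% and 5.69% of all genes, and the median log2 fold change was 0.04. *Derl3*, a membrane component of ERAD, had 15 and 7 against 36 and 32 UMIs (2.01 ± 0.392, adjusted p = 0.0997). *Herpud1*, which joins the HRD1 complex, had 14.5 and 16.1 against 22.1 and 22.0 CPM (0.53, adjusted p = 0.193). *Syvn1*, which encodes HRD1, was at 0.00. After thinning, a UMI of *Derl3* was in only 0.650% and 0.150% of L2/3 IT nuclei under the Sel1L fl/fl label and in 1.42% and 0.307% under the Sel1L SynCre label, the latter below the 14.8% and 4.76% of oligodendrocyte nuclei in the libraries labelled Sel1L SynCre. Shares below that class were not read as expression of *Derl3*.

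Of 22 ER chaperones and folding enzymes, 5 were higher and none lower at an unadjusted p, against 6.19% and 5.69% of all genes, and the median was 0.25. *Hspa5*, the main ER chaperone BiP, had 22.0 and 17.3 against 37.8 and 29.7 CPM (0.77 ± 0.172, adjusted p = 0.133). The ranges did not overlap, whereas *Hsp90b1*, which encodes GRP94, overlapped, with 68.3 and 56.4 against 76.9 and 59.6 CPM (0.13, adjusted p = 0.789). *Hyou1*, a large ER chaperone, was at 0.24 (adjusted p = 0.633). Of 12 UPR sensors and transcription factors, 3 were higher and none lower at an unadjusted p, against the same shares. *Ddit3*, which encodes CHOP, had 52 and 22 against 78 and 112 UMIs (1.76 ± 0.271, adjusted p = 0.0619), and without the library with *Cre* RNA 2.19 (adjusted p = 0.0259), while in nuclei with at least 4 rule genes it was 1.76 (adjusted p = 0.0330). *Xbp1*, the transcription factor downstream of IRE1α, was at 0.44, *Creb3l2* at 0.48 and *Atf4* at -0.04 (adjusted p = 0.317, 0.504 and 0.948).

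ATF4 acts on genes of amino acid supply and of translation. Of 13 genes of amino acid synthesis and transport, none passed, and 5 were higher and none lower at an unadjusted p, with a median of 0.19. The shares of all genes, for this and the next 3 lists, were 6.19% higher and 5.69% lower. The 5 were the transporters *Slc38a2*, *Slc7a1*, *Slc7a11* and *Slc3a2* and the transaminase gene *Gpt2*. *Asns* and *Psat1*, 2 biosynthetic enzymes, were at -0.01 and 0.07. Of 20 cytosolic aminoacyl-tRNA synthetases, none was past an unadjusted p of 0.05 in either direction, and the median was 0.02. Of 8 ATF4 targets and translation brakes, none passed, *Fam129a* (2.56, adjusted p = 0.0619) and *Trib3* (3.08, from 3, 0, 10 and 11 UMIs) were higher at an unadjusted p, and *Eif4ebp1* was lower (-0.66). Of 20 one-carbon metabolism genes, none passed, *Mthfd2* was higher at an unadjusted p (0.56) and *Mat2b* and *Mthfd2l* lower (-0.53 and -0.35).

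A panel of 12 stress response genes (*Derl3*, *Creb3l2*, *Sdf2l1*, *Trib3*, *Fam129a*, *Cyb5r2*, *Ddit3*, *Chac1*, *Slc7a3*, *Slc7a11*, *Cth* and *Eif4ebp1*) was used to count nuclei. The panel was chosen with earlier results of these data known and is no independent evidence of direction. After thinning to 4000 UMIs, a UMI of any panel gene was in 9.43% and 8.72% of L2/3 IT nuclei under the Sel1L fl/fl label and in 11.7% and 13.0% under the Sel1L SynCre label, with 95% Wilson intervals of 7.71 to 11.5, 6.81 to 11.1, 9.30 to 14.6 and 10.7 to 15.8. The labels did not overlap, and the difference was 3.30 percentage points (two-sided exact permutation p = 0.33, the smallest that 4 libraries allow), or 3.65 without the library with *Cre* RNA. Under the same rule, L4/5 IT nuclei had 5.64% and 9.32% against 28.3% and 33.3%, and DG nuclei 6.79% and 5.69% against 55.1% and 39.4%. Oligodendrocyte nuclei had 37.7% and 36.0% against 63.0% and 36.5% (767, 264, 108 and 63 nuclei deep enough), so the panel was not absent from glia. The shares of L2/3 IT nuclei lie below those of that class. The panel gene *Creb3l2* had label means of 86.5 and 80.7 plain CPM in oligodendrocyte nuclei, against 5.14 and 7.32 in L2/3 IT nuclei. That class is therefore no clean measure of free RNA of the panel. The shares of L2/3 IT nuclei were not read as expression, and the part of free RNA in them was not tested.

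L4/5 IT and DG nuclei of the same libraries were used to see where the change with the label differed in L2/3 IT nuclei. Nuclei of L4/5 IT kind were 195, 119, 106 and 111, picked by at least 3 L4/5 genes and fewer than 3 L2/3 genes, and DG nuclei were 535, 247, 209 and 180, picked by *Prox1* and at least 2 of *C1ql2*, *Dsp*, *Trpc6*, *Tdo2* and *Glis3*. In L4/5 IT nuclei 58 of 11172 genes passed (0.519%), 44 higher (0.394%) and 14 lower (0.125%), with 5.99% higher and 5.05% lower at an unadjusted p. In DG nuclei 26 of 12499 passed (0.208%), 21 higher (0.168%) and 5 lower (0.04%), with 5.26% and 4.98% at an unadjusted p. These counts do not compare the classes, since depth and the genes tested differ. The comparisons share the same mice, so the test of the difference itself, the interaction of class and label with library as a block, was run over all genes.

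Against L4/5 IT nuclei, the log2 fold change differed for 15 of 15366 genes (0.0976%), 3 with a higher and 12 with a lower value in L2/3 IT nuclei. *Sel1l* was among the lower ones. It had 97.0 and 82.1 against 101 and 95.6 CPM in L2/3 IT nuclei (0.13) but 90.1 and 74.3 against 153 and 151 CPM in L4/5 IT nuclei, where it rose (0.88, adjusted p = 0.0282). The difference was -0.73 ± 0.129 (SE, adjusted p = 0.0264). *Dnajc3*, a co-chaperone of BiP, was at 0.46 in L2/3 IT and 1.53 in L4/5 IT nuclei (difference -1.07 ± 0.163, adjusted p = 0.00829), and *Pdia6*, a protein disulfide isomerase, at 0.27 and 1.46 (difference -1.20 ± 0.194, adjusted p = 0.0103). Among 21 ER chaperones in this test, the difference was below 0 for all 21, with a median of -0.65 against 0.01 for all genes, and 2 passed. Among 20 ERAD genes, 1 passed and the median was -0.16. The count of 15 became 47 without the library with *Cre* RNA, 0 without replicate 1 labelled Sel1L SynCre (875 at an unadjusted p) and 2 without replicate 2 of it, and DESeq2 gave 0 (174 at an unadjusted p). The 11 genes named in this comparison kept their direction in all 99 alternative values and their side of the threshold in 59.

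Genes other than those of the ER were among the differences too. The serotonin receptor gene *Htr2a* had 21.7 and 20.1 against 25.5 and 23.0 CPM in L2/3 IT nuclei (0.22), while it fell in L4/5 IT nuclei from 55.1 and 78.7 to 28.5 and 28.8 CPM (-1.20, adjusted p = 0.0310), a difference of 1.39 ± 0.224 (SE, adjusted p = 0.0103). *Erc2*, a protein of the presynaptic active zone, was at 0.31 in L2/3 IT and -0.27 in L4/5 IT nuclei, neither past the threshold alone (difference 0.60, adjusted p = 0.0103). *Unc13c*, a synaptic vesicle priming gene, was at -0.92 and 1.60 (difference -2.42, adjusted p = 0.00557) with only 81 UMIs in all L4/5 IT nuclei. *Npas3*, *Fstl5*, *Agap1* and *Luzp2* also had lower values in L2/3 IT nuclei, with differences of -1.69, -1.06, -0.84 and -1.05, and *9630014M24Rik* a higher one (0.97). In L4/5 IT nuclei *Npas3* had 35.1 and 65.6 against 170 and 69.5 CPM, so that 1 library labelled Sel1L SynCre stood apart.

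Against DG nuclei, 46 of 16070 genes (0.286%) differed, 28 higher and 18 lower in L2/3 IT nuclei. The 28 include *Stard8*, a gene of the L2/3 rule, and *Glis3*, a gene used to pick DG nuclei, whose values the selection used. Of 22 ER chaperones, 8 passed with a lower value, namely *Hsp90b1*, *Hyou1*, *Dnajc3*, *Canx*, *Pdia3*, *Pdia4*, *Pdia6* and *Ero1lb*, 21 were below 0 and the median was -1.02, against 0.03 for all genes. *Hsp90b1* rose in DG nuclei from 68.8 and 58.9 to 268 and 197 CPM (1.86, adjusted p = 0.00448) and was at 0.13 in L2/3 IT nuclei, a difference of -1.70 ± 0.126 (SE, adjusted p = 0.00113). *Sel1l* differed by -1.01 ± 0.122 (SE, adjusted p = 0.0191), with a rise of 1.18 in DG nuclei. *Magt1*, a subunit of the ER oligosaccharyltransferase, differed by -1.77 and *Nucb2*, a calcium-binding protein of the secretory route, by -1.62. *Il1rapl2* also differed. It fell in L2/3 IT nuclei (-1.27) and had 192 and 243 against 242 and 183 CPM in DG nuclei (-0.03), a difference of -1.20 ± 0.163 (SE, adjusted p = 0.0237). In L4/5 IT nuclei it had 908 and 741 against 523 and 473 CPM (-0.73, adjusted p = 0.0627), and in interneuron nuclei 509 and 492 against 268 and 392 plain CPM, so lower values under the Sel1L SynCre label were not particular to L2/3 IT nuclei. Among those with a higher value in L2/3 IT nuclei were *Fkbp5* (1.47, against 0.19 in DG nuclei, difference 1.28 ± 0.165, adjusted p = 0.0216), the insulin receptor substrate gene *Irs2* (1.83 against 0.01, difference 1.82) and the Notch coactivator gene *Maml2* (0.89 against -0.12, difference 1.05). None of these 3 passed in L2/3 IT nuclei alone. *Fkbp5* rose in L4/5 IT nuclei (1.25, adjusted p = 0.0425, edgeR), and its label means in oligodendrocyte nuclei were 53.5 against 358 plain CPM. Higher values of *Fkbp5* under the Sel1L SynCre label were thus not particular to L2/3 IT nuclei. The count of 46 became 87 without the library with *Cre* RNA, 13 without replicate 2 labelled Sel1L fl/fl, 7 without replicate 1 and 0 without replicate 2 labelled Sel1L SynCre (1289 at an unadjusted p).

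**Figure D4:**
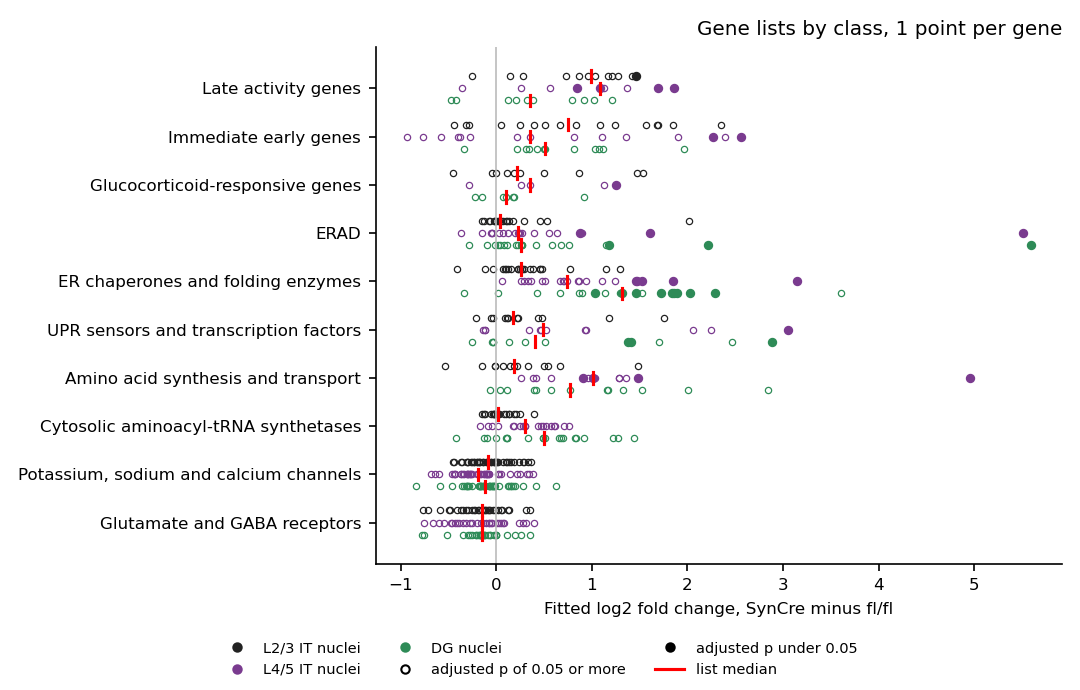
Fitted log2 fold change (horizontal axis, SynCre minus fl/fl label) of the genes tested in 10 lists, for L2/3 IT, L4/5 IT and DG nuclei, with 1 point per gene, filled where the adjusted p was under 0.05, and a red line at the list median. The median of the ER chaperones tested was 0.25 in L2/3 IT nuclei, against 0.74 in L4/5 IT and 1.32 in DG nuclei, and that of the late activity genes was 1.00 in L2/3 IT nuclei, against 1.08 in L4/5 IT and 0.35 in DG nuclei.

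The ER stress response element, CCAAT and CCACG separated by 9 bases of any kind (either strand), is the site through which ATF6 and the factor NF-Y raise chaperone genes. It was in 37 of 32851 promoter windows (0.113%), in 8 of 19 ER chaperones with a window, in 2 of 15 ERAD genes and in none of 9 late activity genes. The 8 are *Hspa5*, *Hsp90b1*, *Dnajc3*, *Canx*, *Calr*, *Pdia6*, *Creld2* and *Ero1b* (*Ero1lb* above). The 4 shown are examples, with the element in capitals:
Hspa5: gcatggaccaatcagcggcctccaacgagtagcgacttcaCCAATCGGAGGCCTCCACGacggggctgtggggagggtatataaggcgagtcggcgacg
Dnajc3: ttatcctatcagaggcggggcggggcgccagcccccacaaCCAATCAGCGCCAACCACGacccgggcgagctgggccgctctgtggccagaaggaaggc
Pdia6: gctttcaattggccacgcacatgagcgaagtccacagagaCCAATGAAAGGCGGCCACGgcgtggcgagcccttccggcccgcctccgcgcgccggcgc
Hsp90b1: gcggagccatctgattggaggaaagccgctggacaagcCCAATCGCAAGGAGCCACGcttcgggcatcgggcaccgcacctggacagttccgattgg

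They lie at chr2:34771985-34772083, chr14:118937787-118937885 and chr12:17266451-17266549 on the plus strand and at chr10:86705598-86705694 on the minus strand of GRCm38.p6. Of these 4 genes, the difference from DG nuclei passed for *Dnajc3*, *Pdia6* and *Hsp90b1*. That difference also passed for *Canx* and *Ero1lb*, which have the element, and for *Hyou1*, *Pdia3* and *Pdia4*, for which no match was found. A match describes the window and says nothing of binding in these nuclei, and a link to the differences was not tested. *Hspa5* had 26.4 and 30.5 against 113 and 93.8 plain CPM in DG nuclei and 21.5 and 17.6 against 36.9 and 30.5 in L2/3 IT nuclei.

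*Cre* RNA was lower in L2/3 IT nuclei than in L4/5 IT, DG and interneuron nuclei. Leaving out replicate 2 labelled Sel1L fl/fl, which had none, the other 3 libraries had 1.01 to 1.70 plain CPM of *Cre* in L2/3 IT nuclei, 4.07 to 8.12 in L4/5 IT nuclei, 5.15 to 6.51 in DG nuclei and 14.4 to 16.0 in interneuron nuclei. The remaining excitatory nuclei had 1.70 plain CPM in replicate 1 labelled Sel1L fl/fl, the same as L2/3 IT nuclei of that library, and 1.73 and 1.95 under the Sel1L SynCre label, against 1.01 and 1.35. *Sel1l* in interneuron nuclei was 99.1 and 98.2 against 313 and 230 plain CPM, and in L2/3 IT nuclei 94.7 and 83.2 against 98.3 and 98.1. *Derl3* in interneuron nuclei was 0.532 and 0 against 55.1 and 36.5 plain CPM, and in L2/3 IT nuclei 0.978 and 0.691 against 4.03 and 3.09. Oligodendrocyte nuclei had 1.78 plain CPM of *Cre* in replicate 1 labelled Sel1L fl/fl, so the L2/3 IT level there is no higher than in that class. With 0 *Cre* UMIs in both libraries labelled Sel1L SynCre, they had *Derl3* at 37.9 and 9.26 and *Sel1l* at 275 and 183 plain CPM. The library labelled Sel1L fl/fl with *Cre* RNA lay below both libraries labelled Sel1L SynCre in *Sel1l* and *Derl3* in each of the 6 classes plotted.

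**Figure D5:**
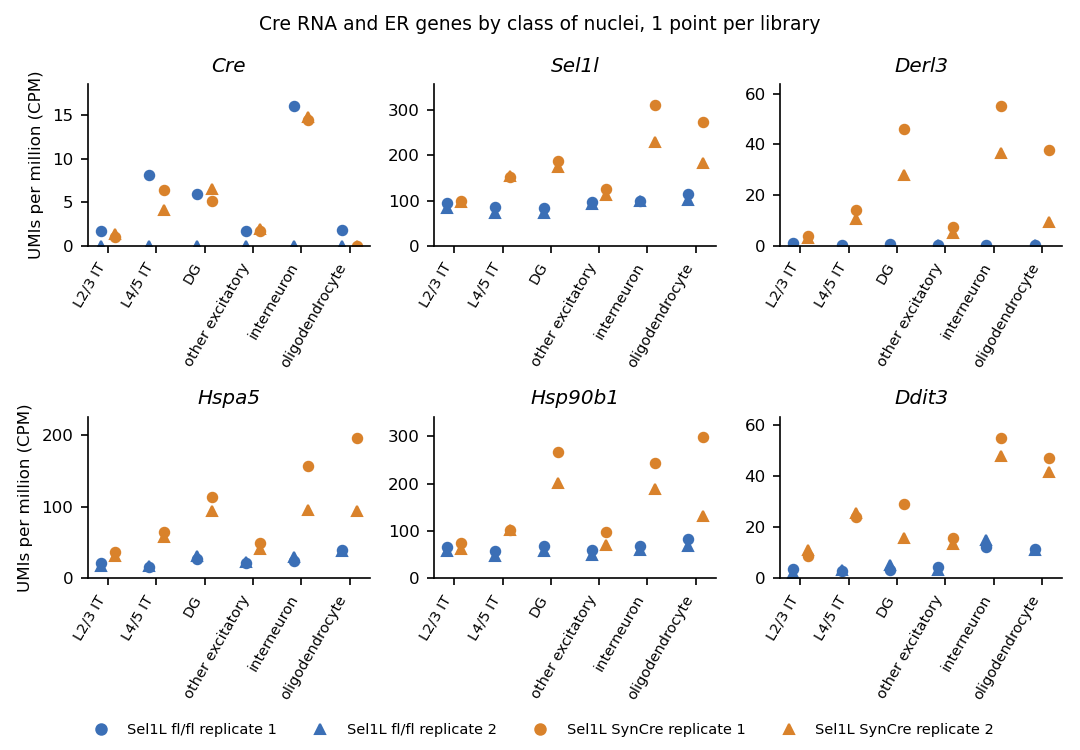
RNA level (vertical axis, plain CPM, from 0) of *Cre*, *Sel1l*, *Derl3*, *Hspa5*, *Hsp90b1* and *Ddit3* in 6 classes of nuclei (horizontal axis), with 1 point per library. For the 5 genes other than *Cre*, the gap between the label means is smallest in L2/3 IT nuclei, and 1 library labelled Sel1L fl/fl carries *Cre*.

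Of 31 glutamate and GABA receptor genes, none passed, 1 was higher and 7 lower at an unadjusted p, against 6.19% and 5.69% of all genes, and the median was -0.15. The 7 included *Gabrd*, the delta subunit of GABA-A receptors (45.4 and 39.8 against 32.0 and 28.8 CPM, -0.49, adjusted p = 0.192), and the metabotropic receptors *Grm2*, *Grm3* and *Grm8*. Of 41 potassium, sodium and calcium channel genes, none passed, 3 were higher and 6 lower at an unadjusted p, against the same shares of all genes, and the median was -0.09. Of 17 cholesterol synthesis, 35 axon guidance and adhesion and 11 p53 target and cell death genes, none passed, with medians of -0.11, -0.15 and -0.02.

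RNA of other cell types was present in L2/3 IT nuclei, and none of the markers tested below passed. Of 9 oligodendrocyte markers tested, none passed, none was higher and 7 were lower at an unadjusted p, against 6.19% and 5.69% of all genes, and the median was -2.03. *Mag* had 84 and 33 against 7 and 3 UMIs, and *Opalin* 52 and 26 against 3 and 0. The most abundant, *Mbp*, overlapped with 1293 and 503 against 863 and 864 UMIs. Summed, the 10 markers of the list made up 181 and 110 plain CPM under the Sel1L fl/fl label and 129 and 102 under the Sel1L SynCre label. Oligodendrocyte nuclei numbered 2065 and 1260 against 390 and 363 in the same libraries. Of 3 endothelial markers tested, none passed and *Flt1* (8, 2, 23 and 29 UMIs) and *Slco1a4* (2, 0, 15 and 15) were higher at an unadjusted p. Of 8 astrocyte markers, none passed and 2, *Apoe* and *Gja1*, were higher at an unadjusted p, against the same share of 6.19% in both lists. Nuclei scored as doublets were 12.5%, 9.17%, 8.69% and 8.12% of L2/3 IT nuclei. With those left out, all 8 genes that passed did so again, in a count of 43. The part of such RNA in the other results was not tested.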

How the data were processed

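Nuclei from cortex and hippocampus of 4 mice were sequenced, 1 library per mouse. Per the labels and the submitters' processing notes, the authors counted UMIs per gene with Cell Ranger 6.1.0 on GRCm38 and deposited raw counts. Strand use in counting is not given in the sources used here. From these counts, nuclei were kept and classed by the rules given in the report, in Python 3.11.15 with scanpy 1.11.5, without clustering. Doublets were scored with Scrublet (0.8% per 1000 nuclei) and kept in the main test.

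UMIs were summed per library and class. Sums were compared by label with edgeR 4.0.16 (TMM, glmQLFit, glmQLFTest, no replicate term), with Benjamini-Hochberg adjustment over all genes tested. Classes were compared by the interaction of class and label, with library as a block. DESeq2 1.42.0, other filters, thinning and leave-outs were alternatives. The rule for named genes took the 12 largest folds in each direction past the threshold with at least 20 UMIs, listed genes past it, 11 ER and UPR genes whatever their p, and the 8 smallest p in each direction of each interaction. Other genes in the text are examples of the lists, chosen after their values were seen. Members and the 36 lists were chosen with earlier results of these data known. The tests were tried on simulated data. Every p rests on 2 mice a label. Some genes of the lists are not reported here by name.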

Additional observations from a re-analysis of the deposited data

Results flagged for a closer look

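These genes had a change with the label that differed between L2/3 IT nuclei and another class of the same libraries, by the interaction test at an adjusted p of 0.05 (edgeR). Values are differences of log2 fold changes, L2/3 IT minus the other class, and no explanation was weighed.

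Against L4/5 IT nuclei, the difference was 0.60 for *Erc2*, 1.39 for *Htr2a* and 0.97 for *9630014M24Rik*. It was -2.42 for *Unc13c*, -1.69 for *Npas3*, -1.06 for *Fstl5*, -0.84 for *Agap1*, -1.07 for *Dnajc3*, -1.20 for *Pdia6*, -1.05 for *Luzp2* and -0.73 for *Sel1l*. Without the library labelled Sel1L fl/fl that carries *Cre* RNA, all 11 passed again.

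Against DG nuclei, the difference was 1.45 for *Mbp*, 1.11 for *Wipf3*, 1.28 for *Fkbp5*, 1.19 for *Gm44257*, 5.21 for *Tnfaip6*, 1.05 for *Maml2*, 2.86 for *Gm48530* and 1.82 for *Irs2*. It was -1.70 for *Hsp90b1*, -1.59 for *Pdia6*, -1.52 for *Dnajc3*, -1.77 for *Magt1*, -1.01 for *Sel1l*, -1.81 for *Pdia4*, -1.62 for *Nucb2* and -1.20 for *Il1rapl2*. *Tnfaip6* had 42 UMIs in all DG nuclei and *Gm48530* had 135. *Mbp* is a myelin gene and was the most abundant oligodendrocyte marker found in L2/3 IT nuclei. Without the library that carries *Cre* RNA, *Gm44257* (adjusted p = 0.0512), *Tnfaip6* (0.0869) and *Pdia4* (0.0698) no longer passed. The 16 genes kept their direction in all 141 alternative values and their side of the threshold in 89. The difference of *Tnfaip6* ranged from 2.00 with doublets left out (adjusted p = 0.743) to 10.1 without replicate 2 labelled Sel1L SynCre, and it passed in 2 of 7 alternatives.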

How the results depend on the processing

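The 8 genes that passed in L2/3 IT nuclei kept their direction in all 120 alternative values and their side of the threshold in 111. Counts of genes past it moved more, and the cause was not tested. In L2/3 IT nuclei, with 8 in the main test, DESeq2 gave 152, the filter of 10 UMIs in every library 21, doublets left out 43, thinning to the smallest total 19, at least 4 rule genes 89 and no L4/5 rule gene 25, and leaving out 1 library gave 15 to 232. In L4/5 IT nuclei (58), DESeq2 gave 37, no filter 0 (1490 at an unadjusted p), doublets left out 108 and leaving out 1 library 112 to 492. In DG nuclei (26), DESeq2 gave 52, no filter 7, doublets left out 189 and leaving out 1 library 46 to 97. For the difference from L4/5 IT nuclei (15), DESeq2 gave 0, the filter of 10 UMIs 25 and leaving out 1 library 0 to 47. For the difference from DG nuclei (46), DESeq2 gave 21, the filter of 10 UMIs 76, doublets left out 163, thinning 16 and leaving out 1 library 0 to 87. The panel share differed by 5.39 points with no thinning, and by 2.63 to 3.96 with 1 library left out.

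With the replicate number as a replicate block, 326 genes passed in L2/3 IT nuclei, 68 in L4/5 IT and 227 in DG nuclei. The deviations of same-numbered libraries correlated at 0.221, and as there are only 2 pairs, which coincide with sex, the numbers were not taken to pair the mice. All 8 genes passed under the block too, as did *Ddit3*, *Hspa5* and *Derl3* (adjusted p = 0.00718, 0.0144 and 0.0190), which had not passed without it.

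Some genes that did not pass had reversed values in an alternative, and these are given here. *Hyou1* was at -0.041 with no L4/5 rule gene. *Hsp90b1* ranged from -0.066 (without replicate 1 labelled Sel1L SynCre) to 0.30 with 1 library left out. *Atf4* ranged from -0.18 to 0.087 with 1 library left out, being 0.016 without replicate 2 labelled Sel1L fl/fl, and was 0.050 after thinning and 0.10 with no L4/5 rule gene. *Cre* ranged from -0.54 without replicate 2 labelled Sel1L fl/fl, the library that has none, to 6.57 without replicate 1 of that label, a fitted value against 0 UMIs that depends on the prior count.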

Other observations

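Some genes lay close to the threshold in L2/3 IT nuclei, with values given as they stand. *Abi3bp*, an extracellular matrix gene, had 352 and 385 against 66 and 97 UMIs (log2 fold change -1.86). *Tnfaip6*, which binds hyaluronan, had 47 and 14 against 104 and 182 UMIs (2.62). Its label means were 2.22 against 14.6 plain CPM in L2/3 IT nuclei and 162 against 224 in oligodendrocyte nuclei, where it was more abundant. *Cbfb*, a partner of RUNX factors, had 365 and 254 against 393 and 566 UMIs (1.00, adjusted p = 0.0529, edgeR). They were chosen after their values were seen. None of these 3 passed.

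Markers of other excitatory neurons were read in L2/3 IT nuclei too. Of 4 layer 5 IT markers tested, 1 fell, *Il1rapl2*, which is among the genes of the report, against 0.0192% of all genes. At an unadjusted p under 0.05, none was higher and 2 were lower, against 6.19% and 5.69% of all genes. The median was -0.40. Of 4 layer 4 IT markers and 5 layer 6 corticothalamic markers, none passed, with medians of -0.23 and -0.31. The rule used *Cux2*, *Rspo1* and *Whrn* of the layer 4 list, so the values of that list are a description and not a test. *Plcxd2*, the L2/3 marker that was more common in L4/5 IT nuclei, was at 1.03 (adjusted p = 0.0770) and *Calb1* at -0.63 (adjusted p = 0.228). Of 7 genes of L2/3 subtypes and 14 L2/3 markers outside the rule, none passed (medians 0.08 and 0.10). Nor did any of 3 layer 6 IT (-0.14), 2 layer 5/6 near-projecting (-0.52), 1 layer 6b (0.64), 4 CA1 (-0.01) and 3 CA3 markers (0.28). The same held for 2 DG (0.08), 5 interneuron (0.01), 4 oligodendrocyte precursor (-0.45) and 6 microglia markers (-0.28). The rule limits *Gad1* and *Gad2* of the interneuron list, so the values of that list are a description too. *Prox1*, which the rule excludes, was not among the DG markers tested.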
